A study of Mus musculus with 18 samples.

Results

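The imprinted growth genes are 10 genes of the mouse genome that are expressed mainly from the copy inherited from one parent and that are known for their effects on growth. They were taken by symbol from the 54347 rows of the count table, which are the 18 libraries' estimated counts for each gene, and all 10 were found (H19, Igf2, Meg3, Dlk1, Peg3, Mest, Plagl1, Cdkn1c, Grb10 and Ndn). All 10 were among the 18728 genes that passed the filter on low counts. The set was chosen by the level of H19, which in earlier results of these data varied with the tissue and among the eWAT knockout libraries. H19 is therefore described without a test of its own level, and the tests concern the other 9 genes, with the question whether they moved with H19.

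The libraries came from 3 fat depots of 6 mice aged 12 weeks: the interscapular brown depot (iBAT), the inguinal white depot (iWAT) and the epididymal white depot (eWAT). Of these, 3 were wild type (wt) and 3 were homozygous for a deletion that removes the first exon of the long non-coding RNA gene Gm15551 (ko, strain C57BL/6N-{delta}Gm15551). Both genotypes share the C57BL/6N background and were fed chow, the deletion is 1 CRISPR/Cas9 line, and every mouse gave 1 library of each depot, so the 6 groups hold 3 libraries each. Nothing in the labels ties a wild type mouse to a knockout mouse.

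Genomic imprinting marks the 2 parental copies of a gene differently, by DNA methylation at control regions that is set in the germ line, so that only one copy is read. Many imprinted genes lie in clusters in which a long non-coding RNA and a protein-coding gene are read from opposite parental copies, as H19 (maternal) and Igf2 (paternal) and as Meg3 (maternal) and Dlk1 (paternal) are. Paternally expressed members tend to promote growth and maternally expressed members to restrain it, most are high in the fetus and fall after birth, and in fat Dlk1 and Mest are known as markers of progenitor cells and of fat expansion.

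The annotation places the members on 5 chromosomes of GRCm38. H19 lies on chromosome 7 from 142575529 to 142578143 and its neighbour Igf2 from 142650766 to 142666816, both on the minus strand, with Cdkn1c on the same chromosome from 143458339 to 143461050. Peg3 (6703892 to 6730431) and Ndn (62346569 to 62350262) lie elsewhere on chromosome 7. Dlk1 (109452823 to 109463336) and Meg3 (109541001 to 109571726) are neighbours on chromosome 12. Mest lies on chromosome 6 from 30723547 to 30748465, Plagl1 on chromosome 10 from 13060504 to 13131694 and Grb10 on chromosome 11 from 11930508 to 12038683.

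H19 is also the host of a microRNA, shown here because it is the sequence that the H19 transcript is known to give rise to and because 3 other members hold microRNAs of their own. The RefSeq mature sequences (GRCm38.p6) of the microRNAs inside H19, Mest, Igf2 and Meg3 follow, 5′ to 3′, with the seed (bases 2 to 8) in capitals. Their levels were not measured by these polyA libraries.
mmu-miR-675-5p (within H19, minus strand): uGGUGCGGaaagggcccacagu
mmu-miR-675-3p (within H19, minus strand): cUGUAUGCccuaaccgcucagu
mmu-miR-335-5p (within Mest, plus strand): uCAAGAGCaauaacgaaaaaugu
mmu-miR-335-3p (within Mest, plus strand): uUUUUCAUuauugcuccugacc
mmu-miR-483-5p (within Igf2, minus strand): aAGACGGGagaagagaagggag
mmu-miR-483-3p (within Igf2, minus strand): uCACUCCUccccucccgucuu
mmu-miR-770-5p (within Meg3, plus strand): aGCACCACgugucugggccacg
mmu-miR-770-3p (within Meg3, plus strand): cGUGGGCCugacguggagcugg
mmu-miR-1906 (within Meg3, plus strand): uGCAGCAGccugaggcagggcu
The 9 sequences hold 9 different seeds.

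The RefSeq table of promoters (300 bases around a transcript's start, GRCm38.p6) held 15 windows for 8 of the members and none for H19 and Cdkn1c. The windows of the 2 members with the widest differences between depots, Mest and Plagl1, and of 2 members that differed the other way, Dlk1 and Ndn, are printed with each CpG dinucleotide, the site of DNA methylation, in capitals. Where a gene had several windows, the one with the most CpG was taken.
Mest (chr6:30737800-30738099, plus strand): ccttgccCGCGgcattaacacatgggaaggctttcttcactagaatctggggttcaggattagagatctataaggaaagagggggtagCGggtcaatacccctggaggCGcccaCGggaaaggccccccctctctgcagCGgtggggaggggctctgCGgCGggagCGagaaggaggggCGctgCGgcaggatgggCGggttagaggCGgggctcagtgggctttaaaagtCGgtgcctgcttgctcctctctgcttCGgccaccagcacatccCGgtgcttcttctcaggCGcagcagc
Plagl1 (chr10:13090582-13090881, plus strand): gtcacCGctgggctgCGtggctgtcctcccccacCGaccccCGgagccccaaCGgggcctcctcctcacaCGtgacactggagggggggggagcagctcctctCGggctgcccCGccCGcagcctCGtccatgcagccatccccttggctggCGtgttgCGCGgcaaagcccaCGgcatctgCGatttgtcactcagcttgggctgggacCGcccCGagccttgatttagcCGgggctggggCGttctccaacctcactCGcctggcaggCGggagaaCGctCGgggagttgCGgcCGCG
Dlk1 (chr12:109452573-109452872, plus strand): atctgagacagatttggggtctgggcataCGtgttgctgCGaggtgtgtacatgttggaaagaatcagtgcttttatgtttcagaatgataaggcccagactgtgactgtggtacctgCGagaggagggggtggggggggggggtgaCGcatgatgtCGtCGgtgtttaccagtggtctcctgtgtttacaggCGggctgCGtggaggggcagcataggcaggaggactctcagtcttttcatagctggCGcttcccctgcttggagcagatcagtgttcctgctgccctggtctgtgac
Ndn (chr7:62348027-62348326, plus strand): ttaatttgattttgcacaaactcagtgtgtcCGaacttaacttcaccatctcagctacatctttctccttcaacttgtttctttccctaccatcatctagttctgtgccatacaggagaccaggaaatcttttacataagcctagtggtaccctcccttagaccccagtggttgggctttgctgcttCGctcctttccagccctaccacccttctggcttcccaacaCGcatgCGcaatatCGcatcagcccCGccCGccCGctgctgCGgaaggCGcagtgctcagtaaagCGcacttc
The Mest window held 17 CpG, that of Plagl1 26, that of Dlk1 9 and that of Ndn 11, against a median of 7 over all 32851 windows. Among the 8 members the window with the most CpG held from 9 (Dlk1) to 45 (Grb10), and 45.8% of all windows held 9 or more. Plagl1 encodes a zinc finger factor known to bind GGGGCCCC, a motif that reads the same on both strands. It was found in a window of 1 of the 8 members, Peg3, and in 1.08% of all windows.

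The libraries held 14997901 to 34389586 counts, so that 3 counts stood for 0.0728 to 0.235 CPM (counts per 1000000 counts of the library, its size scaled by the trimmed mean of M-values, TMM). Gm15551 had 40 to 316 counts in the wild type libraries and 0 to 4 in the knockout libraries. Summed markers of brown adipocytes (5 genes, Ucp1 among them) were 5847 to 11221 CPM in iBAT libraries, against 15.5 to 211 CPM in iWAT and 5.99 to 15.2 CPM in eWAT. Markers of other tissue stood out in 4 libraries. In iWAT, ko replicate 1 held 4231 CPM of 7 skeletal muscle markers (3.25 to 5.90 CPM in the wild type libraries), and wt replicate 3 and ko replicate 2 held 688 and 294 CPM of 6 lymph node markers. In eWAT, ko replicate 3 held 5093 CPM of 6 epididymis markers, which reached 34.5 CPM in the wild type libraries. All comparisons between depots and genotypes were also computed without these 4 libraries. In pieces of whole tissue, fewer cells of a type and less RNA per cell cannot be told apart.

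**Figure D1:**
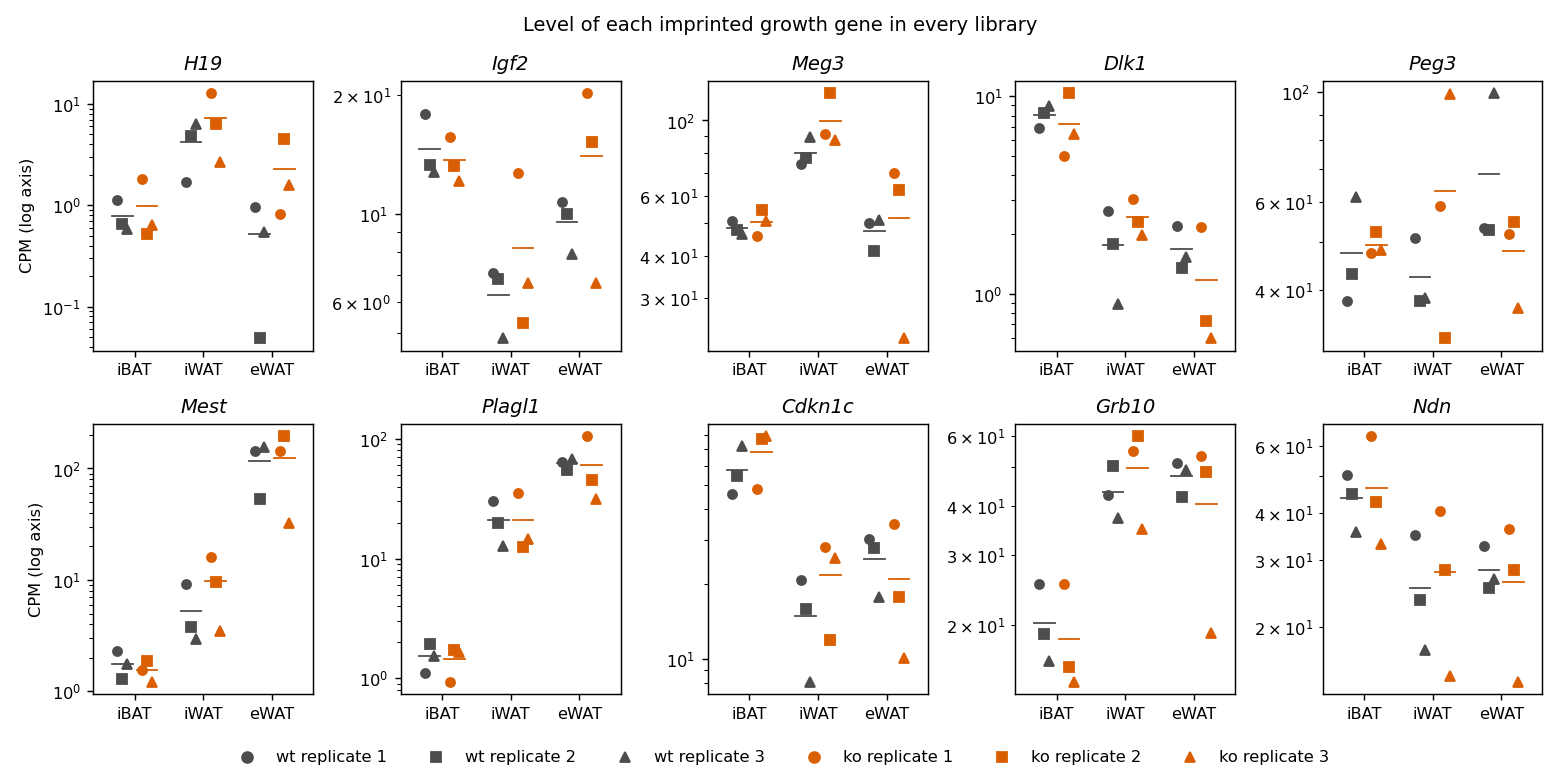
Level in CPM (log axis, its range set for each gene) of the 10 imprinted growth genes in all 18 libraries, by depot; grey marks wild type and orange knockout, the symbol gives the replicate, and the bar is the mean of 3 libraries. Mest and Plagl1 step up from iBAT to iWAT to eWAT, Cdkn1c and Dlk1 are highest in iBAT, H19 is highest in iWAT, and in every panel the grey and orange points of a depot overlap.

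Per kilobase of annotated exons, which allows levels to be set side by side between genes, the order of the members changed with the depot. In iBAT Cdkn1c stood first at 30.8 CPM per kb and Ndn next at 12.2, while Mest (0.422), H19 (0.360) and Plagl1 (0.191) stood last. In iWAT Cdkn1c (9.01) and Ndn (7.19) again led, and H19 reached 2.33 and Dlk1 0.372 CPM per kb. In eWAT Mest stood first at 30.5 CPM per kb, followed by Cdkn1c at 11.3 and Plagl1 at 7.87, with H19 at 0.572 and Dlk1 last at 0.253. These lengths join the exons of all annotated transcripts, so that a gene with rarely used exons is set too low.

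H19, a maternally expressed non-coding RNA, was scarce in all 3 depots and was highest in iWAT. In iBAT the wild type libraries held 1.11, 0.648 and 0.582 CPM and the knockout libraries 1.80, 0.526 and 0.644 CPM, from 7 to 23 counts. In iWAT the wild type libraries held 1.69, 4.77 and 6.30 CPM and the knockout libraries 12.7, 6.29 and 2.64 CPM, from 52 to 329 counts. The lowest iWAT library lay close to the highest iBAT library, and the highest iWAT library was the one with skeletal muscle markers, a tissue in which H19 is known to be expressed. The mean of iWAT was 6.47 times that of iBAT with all libraries and 4.90 times without that library. The part of the muscle markers in this difference was not tested.

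In eWAT, H19 ranged from 1 to 185 counts. The wild type libraries held 0.967, 0.0485 and 0.543 CPM (22, 1 and 11 counts) and the knockout libraries 0.815, 4.49 and 1.58 CPM (19, 185 and 32 counts). The genotypes overlapped, since ko replicate 1 lay below wt replicate 1, and ko replicate 2 lay far above the others. That library also held 1285 CPM of 5 smooth muscle and pericyte markers, against 423 to 781 CPM in the other 5 eWAT libraries, and the part of these cells in its H19 level was not tested. The knockout mean was 4.42 times the wild type mean with all libraries and 2.31 times without ko replicate 2. Without wt replicate 1 the ratio was 7.76. The mean of iWAT was 4.07 times that of eWAT, and 7.24 times without eWAT ko replicate 2. The mean of eWAT was 1.59 times that of iBAT with that library and 0.894 times without it, so the order of these 2 depots rested on 1 library.

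The other members were then compared between depots by the quasi-likelihood test of edgeR, with tissue and genotype in the model, all 18 libraries and Benjamini-Hochberg adjustment over 18728 genes. The 6 mice each gave a library to every depot, and the 3 contrasts share libraries. Differences are log2 fold changes ± standard error. Between iBAT and iWAT 8 of the 9 members passed an adjusted p of 0.05 (4 were higher in brown fat and 4 in white fat), where 54.3% of all genes passed. Between iBAT and eWAT 6 of 9 passed, 3 in each direction, where 54.6% of all genes passed. Between iWAT and eWAT 3 of 9 passed, against 10.2% of all genes. The median difference of the 9 members was -0.12 between iBAT and iWAT, -0.01 between iBAT and eWAT and -0.14 between iWAT and eWAT, beside -0.14, -0.17 and 0.01 over all genes tested. The members thus did not share 1 direction, and a count of 8 was read against a contrast in which more genes passed than did not.

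**Figure D2:**
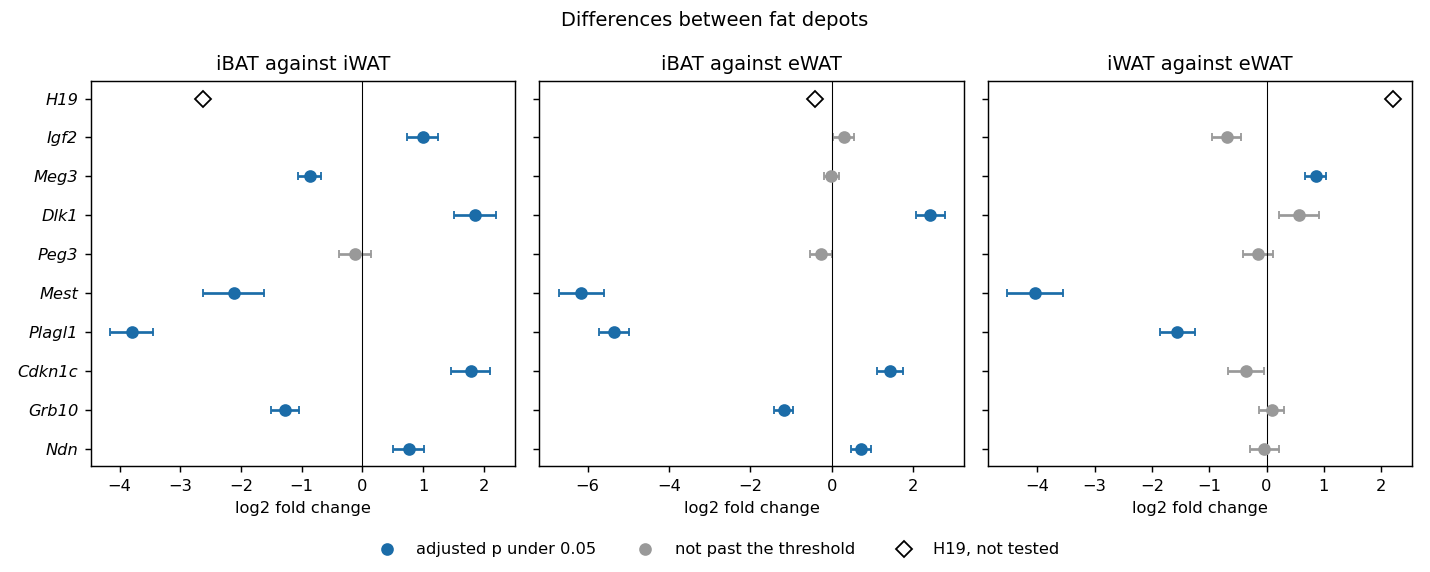
Difference between depots for each member as log2 fold change (point) with its standard error (bar); blue points passed an adjusted p of 0.05, grey points did not, and the open diamonds are H19, which was not tested. Of the tested members Mest and Plagl1 lie farthest to the left in the 2 contrasts of iBAT with white fat (H19 lies left of Mest in the first), Dlk1 and Cdkn1c lie to the right, and Peg3 lies near 0 in all 3.

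Mest, a paternally expressed gene of the alpha/beta hydrolase family that is known to rise in expanding fat, had the widest difference of the members. In iBAT its wild type libraries held 2.29, 1.30 and 1.75 CPM and its knockout libraries 1.57, 1.88 and 1.22 CPM. In iWAT the values were 9.16, 3.80 and 2.93 CPM (wt) and 16.1, 9.50 and 3.49 CPM (ko), and in eWAT 143, 53.4 and 156 CPM (wt) and 144, 194 and 32.3 CPM (ko). No library of one depot reached the range of another, and the lowest eWAT value was that of the library with epididymis markers. Mest was lower in iBAT than in iWAT by a log2 fold change of -2.12 ± 0.50 (edgeR adjusted p = 0.00191), lower in iBAT than in eWAT by -6.16 ± 0.55 (edgeR adjusted p = 8.4e-08) and lower in iWAT than in eWAT by -4.04 ± 0.48 (edgeR adjusted p = 5.09e-05). With the wild type libraries alone the difference between iBAT and iWAT was -1.57 (edgeR adjusted p = 0.0548). Copg2, on the opposite strand, shares 912 bases of exons with Mest and held 485 to 2304 counts. Whether the counting used strand is not stated in the sources used here.

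Plagl1, a paternally expressed zinc finger factor that restrains cell division and is known to act on other imprinted genes, followed the same order of depots. In iBAT its wild type libraries held 1.11, 1.94 and 1.55 CPM and its knockout libraries 0.940, 1.73 and 1.67 CPM. In iWAT the values were 30.2, 19.7 and 12.8 CPM (wt) and 35.5, 12.5 and 14.7 CPM (ko), and in eWAT 64.6, 55.4 and 68.2 CPM (wt) and 105, 44.9 and 31.4 CPM (ko). The iBAT libraries stood apart from all others, whereas iWAT and eWAT overlapped at iWAT ko replicate 1 and eWAT ko replicate 3. Plagl1 was lower in iBAT than in iWAT by a log2 fold change of -3.80 ± 0.36 (edgeR adjusted p = 1.91e-07), lower in iBAT than in eWAT by -5.36 ± 0.37 (edgeR adjusted p = 4.79e-09) and lower in iWAT than in eWAT by -1.56 ± 0.30 (edgeR adjusted p = 0.00401). Summed markers of progenitors and fibroblasts (9 genes, all detected in every library) moved between the depots too, from 513 to 794 CPM in iBAT libraries to 3175 to 10020 CPM in iWAT and 1282 to 2765 CPM in eWAT. Mesothelium markers (5 genes) had a sum of 4.02 to 6.89 CPM in iBAT libraries, where only 1 or 2 of them were over 3 counts, against 3.12 to 54.8 CPM (iWAT) and 69.0 to 122 CPM (eWAT). In iWAT only 3 of the 5 were over 3 counts. Krt19 had 33 to 1379 counts there, while Upk3b had 0 to 1 and Wt1 0 to 3. Schwann cell markers (4 genes) were highest in iWAT, with a sum of 228 to 558 CPM there, 95.9 to 212 CPM in iBAT libraries and 19.9 to 39.4 CPM in eWAT libraries. The part of these cell types in the levels of the members, H19 and Meg3 among them, was not tested.

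Dlk1 and Cdkn1c lay the other way. Dlk1, a paternally expressed transmembrane protein known to hold back the maturation of fat cells, had 6.93, 8.23 and 8.98 CPM in wild type and 5.01, 10.4 and 6.44 CPM in knockout iBAT. In white fat it was lower, with 0.890 to 3.02 CPM in iWAT and 0.594 to 2.20 CPM in eWAT, from 12 to 81 counts. No white fat library reached the lowest iBAT library. Dlk1 was higher in iBAT than in iWAT by a log2 fold change of 1.86 ± 0.35 (edgeR adjusted p = 0.000263) and higher than in eWAT by 2.42 ± 0.35 (edgeR adjusted p = 2.13e-05). Between iWAT and eWAT the difference was 0.57 ± 0.34 (edgeR adjusted p = 0.322).

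Cdkn1c, the maternally expressed inhibitor of cyclin-dependent kinases p57, had 46.0, 54.8 and 72.3 CPM in wild type and 48.3, 76.7 and 78.8 CPM in knockout iBAT. It had 20.7, 15.9 and 8.08 CPM in wild type and 28.3, 11.8 and 25.4 CPM in knockout iWAT. In eWAT it had 30.5, 27.9 and 17.7 CPM in wild type and 35.0, 17.7 and 10.1 CPM in knockout libraries. Every iBAT library lay above every white fat library, and the 2 white depots overlapped. Cdkn1c was higher in iBAT than in iWAT by 1.78 ± 0.32 on the log2 scale (edgeR adjusted p = 0.000175) and than in eWAT by 1.43 ± 0.31 (edgeR adjusted p = 0.00107). Between iWAT and eWAT its difference of -0.36 ± 0.31 did not pass (edgeR adjusted p = 0.513). Gm44732, antisense to Cdkn1c, held 0 to 48 counts.

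Grb10 encodes an adaptor that binds the insulin and IGF1 receptors and dampens their signal, and it is read from the maternal copy in most tissues outside the brain. It had 14.4 to 25.4 CPM in iBAT, with 25.4 CPM in replicate 1 of both genotypes. It had 35.0 to 59.8 CPM in iWAT and 42.2 to 53.5 CPM in 5 eWAT libraries, while eWAT ko replicate 3, the library with epididymis markers, had 19.1 CPM, within the range of iBAT. Grb10 was lower in iBAT than in iWAT by -1.27 ± 0.23 on the log2 scale (edgeR adjusted p = 0.000188) and lower than in eWAT by -1.19 ± 0.23 (edgeR adjusted p = 0.000325). Between the white depots it differed by 0.09 ± 0.22 (edgeR adjusted p = 0.847).

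Igf2, the paternally expressed fetal growth factor next to H19, was lower in iWAT, the depot where H19 was highest. It had 12.1 to 17.8 CPM in iBAT. In iWAT it had 7.08, 6.84 and 4.85 CPM in wild type and 12.7, 5.30 and 6.68 CPM in knockout libraries, and ko replicate 1, with the muscle markers, was the highest of these for Igf2 as for H19. In eWAT it had 7.90 to 10.7 CPM in wild type and 20.2, 15.2 and 6.68 CPM in knockout libraries. Igf2 was higher in iBAT than in iWAT by 0.99 ± 0.26 on the log2 scale (edgeR adjusted p = 0.00374). It differed by 0.29 ± 0.25 between iBAT and eWAT (edgeR adjusted p = 0.344). Between iWAT and eWAT its difference of -0.70 ± 0.25 did not pass (edgeR adjusted p = 0.0925). Without the 4 libraries with markers of other tissue that difference was -0.84 (edgeR adjusted p = 0.0357), and with the mouse as a replicate block it was -0.68 (edgeR adjusted p = 0.0393), both past the threshold. Gm49394, a transcript that reads through from Ins2 into Igf2, and the antisense Igf2os held at most 10 and 4 counts.

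Meg3, the maternally expressed non-coding RNA next to Dlk1, was highest in iWAT, as H19 was. It had 45.6 to 54.6 CPM in iBAT and 74.4, 77.6 and 89.3 CPM in wild type and 91.4, 120 and 87.9 CPM in knockout iWAT. In eWAT it had 50.1, 41.2 and 50.8 CPM in wild type and 70.1, 62.3 and 22.8 CPM in knockout libraries, with the lowest value again in ko replicate 3. Every iWAT library lay above every library of the other depots. Meg3 was lower in iBAT than in iWAT by -0.87 ± 0.19 on the log2 scale (edgeR adjusted p = 0.00104) and higher in iWAT than in eWAT by 0.86 ± 0.19 (edgeR adjusted p = 0.00926), while iBAT and eWAT differed by -0.01 ± 0.19 (edgeR adjusted p = 0.976). Without wild type replicate 2 the call between the white depots was lost (0.85, edgeR adjusted p = 0.0527). Meg3 and its neighbour Dlk1 thus differed between iBAT and iWAT in opposite directions, and so did Igf2 and H19, of which H19 was not tested.

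Ndn, a paternally expressed protein known to slow cell division and the maturation of fat cells, was higher in iBAT by a small margin. Its iBAT libraries held 33.2 to 63.4 CPM, those of iWAT 14.9 to 40.3 CPM and those of eWAT 14.4 to 36.1 CPM, and the depots overlapped. Its difference was 0.76 ± 0.25 from iWAT (edgeR adjusted p = 0.0178) and 0.72 ± 0.25 from eWAT (edgeR adjusted p = 0.0236) on the log2 scale. Without wild type replicate 2 the adjusted p was 0.0636 and 0.0741, and without knockout replicate 2 it was 0.0502 and 0.0606, with log2 differences of 0.71 to 0.79. With wild type libraries alone the difference from eWAT was 0.62 (edgeR adjusted p = 0.0793). Peg3, a paternally expressed zinc finger protein, was the member that passed in no contrast. Its libraries held 38.0 to 61.6 CPM (iBAT), 32.0 to 98.9 CPM (iWAT) and 36.8 to 99.3 CPM (eWAT), and its 3 differences lay between -0.27 ± 0.26 and -0.12 ± 0.26.

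The knockout was then compared with wild type in each depot, with 1 mean per tissue and genotype. None of the 9 members passed an adjusted p of 0.05 in iBAT, iWAT or eWAT, nor across the depots, and none had an unadjusted p under 0.05 (edgeR). DESeq2 called 0 of them as well. By edgeR few genes passed at all. They were 0% of those tested in iBAT, 0% in iWAT, 0.00534% in eWAT and 0.00534% across the depots. For a genotype effect that differed between depots 0% passed. Even the deleted Gm15551 was thus not called in iBAT or iWAT. In simulated counts the eWAT comparison recovered 23% of the genes changed by 1 on the log2 scale and 47% of those changed by 2. The absence of a call therefore does not show that a member was unchanged. No member had its 3 knockout libraries all above or all below its 3 wild type libraries in any depot. Of all genes 4.94% did in iBAT, 4.92% in iWAT and 5.25% in eWAT. With shares this low, 0 of 9 does not set the members apart from all genes.

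In iBAT the differences of the 9 members between knockout and wild type lay between -0.20 ± 0.79 (Mest) and 0.24 ± 0.44 (Cdkn1c) on the log2 scale. In iWAT they lay between -0.00 ± 0.45 (Plagl1) and 0.87 ± 0.64 (Mest). In eWAT, where the knockout mean of H19 was the higher one, they lay between -0.54 ± 0.49 (Dlk1) and 0.56 ± 0.36 (Igf2). Igf2 had its highest eWAT values in ko replicates 1 and 2, at 20.2 and 15.2 CPM, but its lowest in ko replicate 3, at 6.68 CPM. Across the depots the largest difference was that of Mest, 0.30 ± 0.38, followed by Igf2 with 0.29 ± 0.21 (unadjusted p = 0.188 by edgeR). In this fit the 3 libraries of a mouse counted as separate, so its standard errors and p may be too small. With the counts summed per mouse 0 of 20600 genes passed (edgeR).

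**Figure D3:**
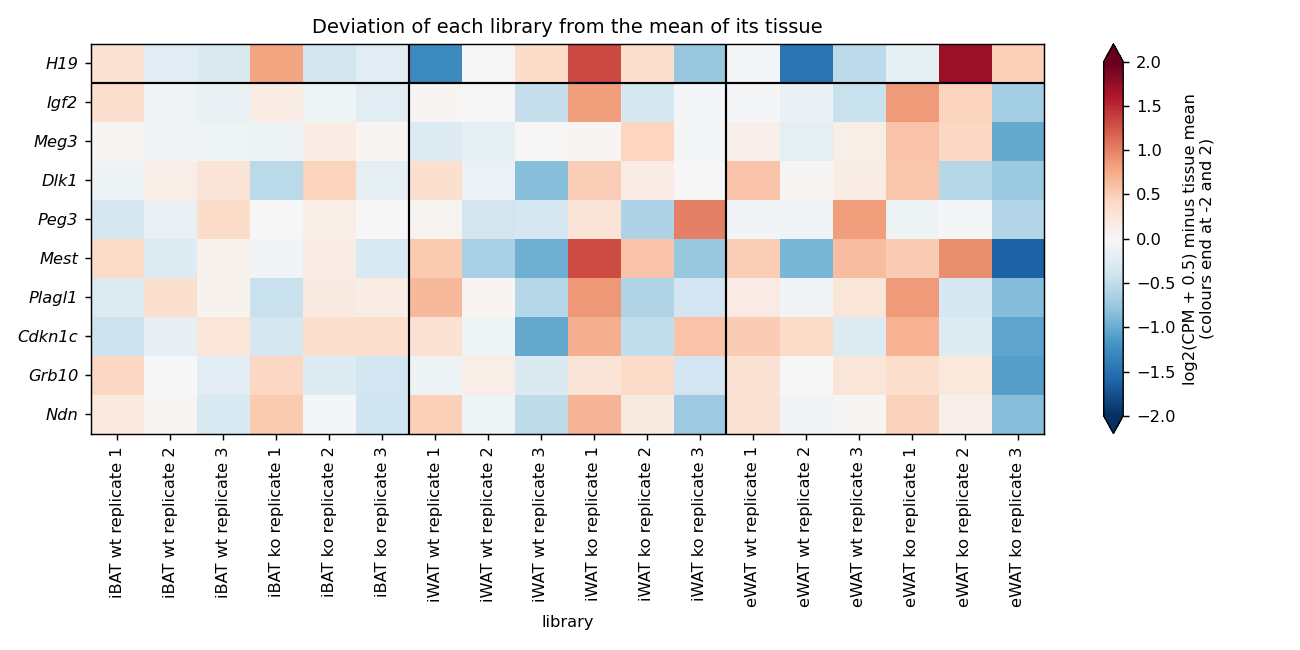
Difference of each library from the mean of its depot, as log2(CPM + 0.5), for H19 (top row) and the other 9 members; red is above and blue below the depot mean. The H19 row is darkest red in eWAT ko replicate 2 and iWAT ko replicate 1; eWAT ko replicate 3 is blue for all 9 other members, and iWAT ko replicate 1 is red for all but Meg3, which is near 0.

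Whether the other members moved with H19 from mouse to mouse was asked within each depot, over its 6 libraries from 6 mice, by correlating log2(CPM + 0.5) with exact permutation tests over 720 pairings. Of the 27 relations, 0 passed after Benjamini-Hochberg adjustment, by Pearson's r (lowest adjusted p = 0.169, exact permutation) or by Spearman's rho (lowest adjusted p = 0.463, exact permutation). By sign they split into 14 positive and 13 negative. With 6 libraries the smallest p that the permutations can give is 0.00139 for Pearson's r and 0.00278 for Spearman's rho. A single relation could thus reach an adjusted p of 0.0375 (exact permutation, Pearson) or 0.075 (exact permutation, Spearman) at the lowest, so that the test by rho could not pass for 1 relation alone.

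The 5 relations with an unadjusted Pearson p under 0.05 were all in iBAT, where H19 had 7 to 23 counts. They were those with Plagl1 (r = -0.92, rho = -0.60, exact permutation p = 0.025), Grb10 (r = 0.87, rho = 0.77, exact permutation p = 0.025), Ndn (r = 0.86, rho = 0.77, exact permutation p = 0.0208), Dlk1 (r = -0.85, rho = -0.83, exact permutation p = 0.0222) and Cdkn1c (r = -0.79, rho = -0.77, exact permutation p = 0.0319). None had an unadjusted Spearman p under 0.05. Without the 2 libraries farthest from the median of H19, replicate 1 of both genotypes, r was 0.38 for Plagl1, 0.25 for Grb10, -0.22 for Ndn, -0.85 for Dlk1 and -0.48 for Cdkn1c. The 4 libraries that remain held only 7 to 10 counts of H19, so that the 5 relations could not be examined without these 2 libraries.

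In iWAT r lay between -0.30 (Peg3) and 0.56 (Grb10), and in eWAT between -0.54 (Dlk1) and 0.32 (Mest). Igf2 and Mest had a positive r in all 3 depots, with 0.75, 0.38 and 0.24 for Igf2 and 0.19, 0.35 and 0.32 for Mest in iBAT, iWAT and eWAT. Peg3 and Cdkn1c had a negative r in all 3. For Igf2, the neighbour of H19, r was -0.40, -0.76 and -0.32 without the 2 farthest libraries of each depot, and for Mest it was -0.96, 0.38 and -0.89. These values come from 4 libraries with the widest values of H19 removed, and nothing is read from their sign. Within none of the depots did the adjusted p of Igf2 pass (0.256, 0.819 and 0.890, exact permutation).

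**Figure D4:**
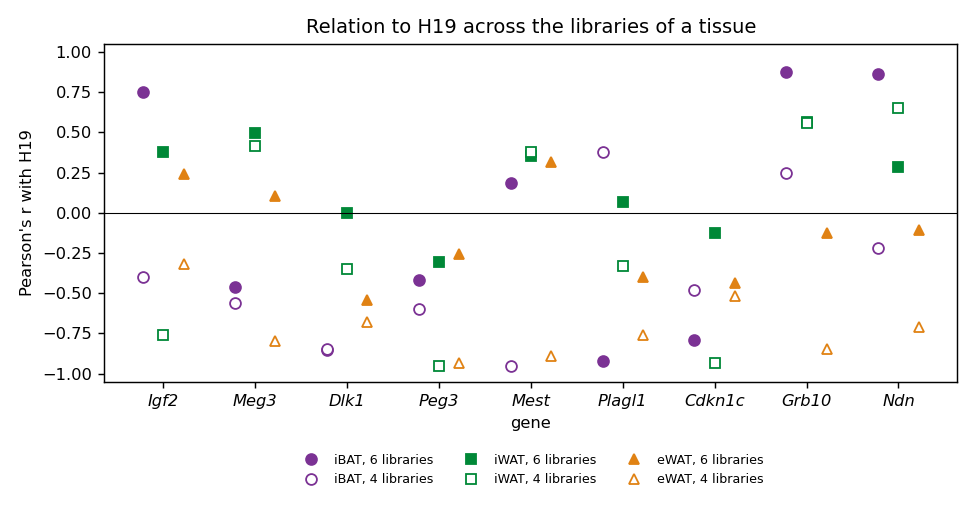
Pearson's r of each member with H19 over the 6 libraries of a depot (filled) and over the 4 that remain without the 2 libraries farthest from the median of H19 (open). The filled points lie on both sides of 0 in every depot, and the open points, from which the range of H19 was removed, are given as values only.

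The genes most like H19 were sought among 18727 others by Pearson's r over the 18 libraries after the mean of each depot was removed, as a description with no test since 3 libraries came from each mouse. The highest were Zfp418 (0.75), Kcnt2 (0.75), Ccn5 (0.74), Des (0.74) and Sptlc2 (0.72), and Des encodes the muscle intermediate filament desmin. The likeness was not equal in all depots. In iBAT alone r was 0.01 for Ccn5 (0 to 9 counts) and 0.43 for Kcnt2 (1 to 4 counts). For Des, Zfp418 and Sptlc2 it was 0.58, 0.83 and 0.89 there. No member was near the top of this order. Igf2 (r = 0.34) ranked 1585 and Mest (r = 0.32) 1768, while Dlk1 (r = -0.38) ranked 17427.

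Ndn differed between mice in a way that was alike in the 3 depots, given as values with no test. Replicate 1 of the knockout and replicate 1 of the wild type were its highest and its next highest library in iBAT (63.4 and 50.3 CPM), iWAT (40.3 and 34.9 CPM) and eWAT (36.1 and 32.7 CPM). It was singled out after its values were seen, the 3 libraries of a mouse are not independent, and the labels do not say what replicate numbers of the 2 genotypes share.

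The wider set of imprinted genes also held genes higher and genes lower in each depot. Of 54 other imprinted genes, 53 were found and 48 were tested. Between iBAT and iWAT 25 passed (11 higher and 14 lower in brown fat), between iBAT and eWAT 32 (16 and 16) and between iWAT and eWAT 9 (4 higher and 5 lower in iWAT), which are 52.1%, 66.7% and 18.8% of those tested, beside 54.3%, 54.6% and 10.2% of all genes. Their median log2 differences were -0.35, -0.13 and 0.09. For the genotype 0 passed in any depot (edgeR), with 0, 0 and 3 of 48 at an unadjusted p under 0.05 in iBAT, iWAT and eWAT, beside 238, 415 and 814 of the 18728 genes.

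**Figure D5:**
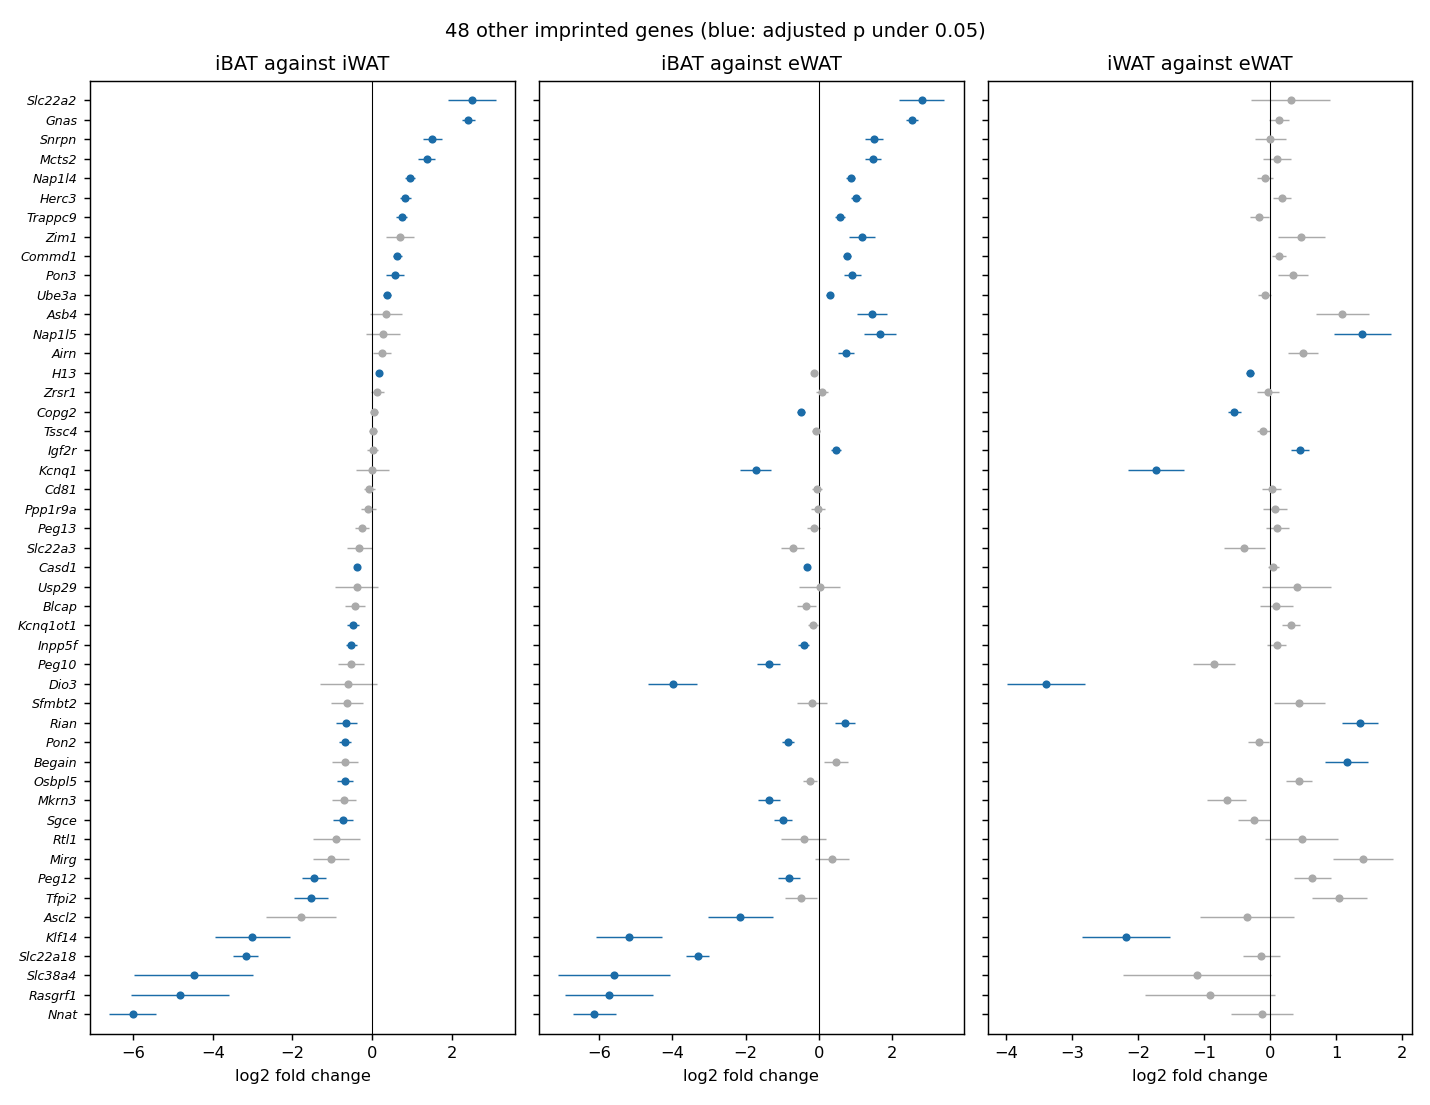
Log2 fold change between depots (point) with its standard error (bar) for the 48 other imprinted genes that were tested, in the order of their difference between iBAT and iWAT; blue passed an adjusted p of 0.05. Gnas lies to the right and Nnat farthest to the left in both contrasts with iBAT, and few genes are blue between the white depots.

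Nnat, which encodes a small membrane protein of the endoplasmic reticulum, had a mean of 7.18 CPM in iBAT against 462 CPM in iWAT and 500 CPM in eWAT (-6.01 ± 0.59 and -6.13 ± 0.59 on the log2 scale, edgeR adjusted p = 3.16e-07 and 1.95e-07). Slc22a18, a membrane transporter of the Cdkn1c cluster, was lower in iBAT by -3.17 ± 0.31 and -3.30 ± 0.32, opposite to Cdkn1c, with only 4 to 9 counts in iBAT. Gnas, the stimulatory G protein alpha subunit through which adrenergic receptors act, was higher in iBAT by 2.42 ± 0.16 and 2.55 ± 0.16. Nap1l4, a histone chaperone, was higher in iBAT by 0.95 ± 0.12 and 0.88 ± 0.12, and Mcts2 by 1.37 ± 0.21 over iWAT and Commd1 by 0.77 ± 0.11 over eWAT. Peg12 was lower in iBAT than in iWAT by -1.45 ± 0.30, with 2 to 9 counts in iBAT.

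Between the white depots 2 genes of the Dlk1 and Meg3 cluster differed in the direction of Meg3. Rian, a non-coding RNA downstream of Meg3, was higher in iWAT than in eWAT by 1.37 ± 0.27 on the log2 scale (edgeR adjusted p = 0.00437), and Begain by 1.16 ± 0.33 (edgeR adjusted p = 0.0327). Dio3, the enzyme of the same cluster that inactivates thyroid hormone, lay the other way, with 21 to 61 counts in the eWAT libraries, 0 to 6 in iWAT (edgeR adjusted p = 0.00155) and 0 to 3 in iBAT. Igf2r was higher in iWAT than in eWAT by 0.46 ± 0.14, and Copg2 and H13 were lower by -0.54 ± 0.10 and -0.30 ± 0.06. Copg2, which overlaps Mest on the other strand, lay in the direction of Mest. The calls of Begain and Igf2r were lost under 8 and 9 of 13 alternatives, those of Copg2, H13 and Dio3 with wild type libraries alone, and that of Rian under 0 of 13.

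Of 17 genes of the insulin-like growth factor axis, through which Igf2 and Grb10 act, 15 were tested. Between iBAT and iWAT 9 passed (8 were lower in brown fat), between iBAT and eWAT 10 (9 were lower in brown fat), and between iWAT and eWAT 4 passed, 3 lower in iWAT. These are 60.0%, 66.7% and 26.7% of the 15, beside 54.3%, 54.6% and 10.2% of all genes (30.3% and 30.2% of all genes were lower in iBAT than in iWAT and in eWAT). Without knockout replicate 2 the counts were 4 between iBAT and iWAT and 2 between the white depots, and with wild type libraries alone they were 4 and 0. The progenitor and fibroblast markers given above were lower in iBAT as well, and their part in these differences was not tested. Igf1, the circulating growth factor, had a mean of 29.2 CPM in iBAT against 178 CPM in iWAT and 239 CPM in eWAT (-2.61 ± 0.33 and -3.03 ± 0.34 on the log2 scale). The IGF binding proteins Igfbp4 (-3.02 ± 0.25) and Igfbp6 (-3.00 ± 0.39) were lower in iBAT than in iWAT, and Igfbp4 was lower than in eWAT too (-2.72 ± 0.24). The clearance receptor Igf2r was higher in iBAT than in eWAT by 0.47 ± 0.14, and Pappa, a protease that cleaves IGF binding proteins, was higher in iBAT than in iWAT by 0.69 ± 0.23, a call that was lost under 6 of 12 alternatives. Between the white depots Pappa (-1.49 ± 0.23), Igfbp2 (-3.86 ± 0.81, with 0 to 40 counts in iWAT) and Igf2bp2 (-0.98 ± 0.21), which encodes an RNA-binding protein that binds Igf2 mRNA, were lower in iWAT. Igf2bp2 was also lower in iBAT than in eWAT by -1.55 ± 0.21. For the genotype 0 of 15 passed in any depot, with 2, 1 and 0 at an unadjusted p under 0.05, as 238, 415 and 814 of the 18728 genes were.

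Of 9 genes that keep imprints in place, 8 were tested. Between iBAT and iWAT 7 passed (6 were lower in brown fat), between iBAT and eWAT 5 (4 were lower in brown fat), and between the white depots 0 passed (edgeR), with 0 at an unadjusted p under 0.05. These are 87.5%, 62.5% and 0% of the 8, beside the same 54.3%, 54.6% and 10.2%. Of all genes 30.3% were lower in iBAT than in iWAT and 30.2% lower than in eWAT. The progenitor and fibroblast markers were lower in iBAT here too, and their part in the differences of this list was not tested. Zfp57, the zinc finger protein that recognises methylated imprinting control regions, was lower in iBAT by -1.46 ± 0.31 and -1.63 ± 0.31 on the log2 scale, from 5 to 24 counts there. Its cofactor Trim28 was lower by -0.52 ± 0.11 and -0.65 ± 0.11, and the histone methyltransferase Setdb1 by -0.27 ± 0.07 and -0.31 ± 0.07. Zfp445, which acts beside Zfp57, was higher in iBAT by 0.29 ± 0.09 and 0.39 ± 0.09. The call of Zfp445 was lost under 4 of 13 alternatives against iWAT and under 1 against eWAT, and that of Setdb1 under 2 and 1. With wild type libraries alone 3 genes of the list passed in each contrast with iBAT. For the genotype 0 of 8 passed in any depot, with 0 at an unadjusted p under 0.05.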

How the data were processed

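RNA selected by polyA was measured in 18 libraries. Per the labels and the study's methods, the authors used cutadapt for trimming and Salmon for quantification against transcripts of GENCODE M22, alone or joined with RNAcentral (which of these is not given in the sources used here, nor are tool versions), and the deposited values are estimated counts per gene, rounded to whole numbers. From these, edgeR 4.0.16 (R 4.3.3) was used with TMM scaling, its default filter on low counts and the quasi-likelihood F-test, with Benjamini-Hochberg adjustment. CPM values were scaled by TMM, and a pseudocount of 0.5 was added before logarithms. Relations to H19 used exact permutation tests in Python 3.11.15. Library totals were 14997901 to 34389586 counts. The members and lists were chosen with earlier results of these data known.

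Besides the 10 members, the text names up to 3 genes per list and direction with the smallest p among those past an adjusted p of 0.05 in each depot contrast, and the 5 genes most like H19. Libraries of the same mouse share its number in the labels within a genotype. Correlations of deviations from the group means between depots of a mouse were -0.15 to 0.34, and between a wild type and a knockout library of 1 number -0.56 to 0.61, with 4 of 9 over 0.1, so the numbers were not taken to pair the genotypes. The tests were tested on simulated data first. Alternatives were other size factors, DESeq2 1.42.0, other filters, leaving out libraries, blocks, counts summed per mouse, and wild type libraries alone. Fold changes of scarce genes depend on the prior count. The members' rows list 1 gene each, but overlapping genes on the other strand could share reads.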

Additional observations from a re-analysis of the deposited data

Results flagged for a closer look

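In each depot the highest and the lowest of the 6 libraries were compared with the nearest other library for each of the 9 members other than H19, as the gap divided by the whole range, in CPM. Of 27 sets, 4 lay past the critical value of Dixon's test for 6 libraries, where chance flags about 1 in 20, or 1.35 sets of 27. On the log2(CPM + 0.5) scale, tried after the values were seen, 1 of the 27 sets lay past it, that of Grb10 in eWAT. Igf2 in iWAT was set apart by ko replicate 1 (12.7 CPM, gap 0.715 of the range), the library with 4231 CPM of skeletal muscle markers. Meg3 in iWAT was set apart by ko replicate 2 (120 CPM, 0.630). That library held 10020 CPM of progenitor and fibroblast markers, against 3175 to 6610 CPM in the other iWAT libraries, and 294 CPM of lymph node markers, while wt replicate 3 held 688 CPM of the latter and 89.3 CPM of Meg3. Grb10 in eWAT was set apart by ko replicate 3, the lowest library (19.1 CPM, 0.670), which held 5093 CPM of epididymis markers. Peg3 in eWAT was set apart by wt replicate 3 (99.3 CPM, 0.715). The part of the other cells or tissue in these values was not tested.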

How the results depend on the processing

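The number of members past the threshold was 7 to 8 between iBAT and iWAT, 5 to 6 between iBAT and eWAT and 2 to 4 between iWAT and eWAT over all alternatives. Leaving out 1 mouse at a time gave 7 to 8, 5 to 6 and 2 to 3. For the genotype and its difference between depots it was 0 under every alternative run. In these comparisons at most 1 of the 18728 genes passed in the main fit, and at most 13 under an alternative (DESeq2 in iBAT). The counts of 0 thus say little about stability. The number of relations to H19 was 0 too, but with 1 library left out a single Pearson relation could not go below an adjusted p of 0.225 (exact permutation), so this says nothing about stability. Of 351 differences of single members between depots under alternatives, 342 kept their side of the threshold, 7 fell below it and 2 rose past it, and none that passed changed direction. Of 471 such differences of other named genes 433 kept their side, 38 fell below the threshold and none changed direction. Of 468 genotype differences all stayed below the threshold. The sign of a difference or of r that passed under neither setting changed in 14, 61 and 26 cases for the depots, the genotype and H19. The calls lost were those of Ndn (wild type alone, without wild type or knockout replicate 2), Mest between iBAT and iWAT (wild type alone) and Meg3 between iWAT and eWAT (without wild type replicate 2), and the call gained was Igf2 between iWAT and eWAT. With the mouse as a replicate block the counts were 8, 6 and 4, and with the replicate number as a block the genotype counts were 0. The mouse block also ended the call of Igf2r between the white depots (0.46, edgeR adjusted p = 0.0785) and changed no other call of a member. The other imprinted genes that passed between the white depots fell from 9 to 2 with wild type libraries alone and to 5 without a filter, and without wild type replicate 1 or knockout replicate 2. The insulin-like growth factor genes that passed between iBAT and iWAT fell from 9 to 4 with wild type alone and without knockout replicate 2. H19 rested on few counts in iBAT and eWAT, and the ratio of its eWAT means ranged from 2.31 to 7.76 without 1 library. The causes were not tested.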
